A study of Elodea nuttallii and Chlamydomonas reinhardtii with 18 samples.

Results

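The 6 transcripts described here are of the waterweed Elodea nuttallii, a submerged freshwater plant, and are grouped under photoprotection by their descriptions. They were taken by transcript id from the 58110 assembled transcripts in the deposited expression table. An early light-induced protein has 3 of them (Locus_1947_Transcript_1_4_, Locus_1947_Transcript_2_4_ and Locus_1947_Transcript_3_4_). The others are a violaxanthin de-epoxidase (Locus_11946_Transcript_5_7_), a violaxanthin de-epoxidase-related transcript (Locus_5618_Transcript_4_6_) and one-helix protein 2 (Locus_7961_Transcript_4_6_). Descriptions were given only for transcripts that the authors had called between the sites, so uncalled relatives of these genes could not be recognised. The series addresses the toxicity of mercury in the field to a macrophyte and a microalga. Plants came from a clean site and were placed in the River Olt for 2 h, at the sites Valcea, Babeni 1 or Babeni 2, with 3 RNA-seq libraries per site made from the top 10 cm of the shoot with its apex. All 9 libraries therefore share the collection site, the exposure time and the tissue, and Valcea is the site that the authors' tables set both Babeni sites against. Nothing in the labels ties a library to a plant of its own, so p-values measure only how these libraries scatter, and that scatter may be technical. No mercury level, light level or hour of collection is given in the sources used here.

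Early light-induced proteins are relatives of the light-harvesting antenna proteins that sit in the thylakoid membrane and bind chlorophyll and carotenoids. In land plants they are made transiently when light exceeds what photosynthesis can use, during greening and in the cold, and are held to protect against free chlorophyll. Violaxanthin de-epoxidase works in the thylakoid lumen and converts violaxanthin to zeaxanthin when the lumen turns acid, zeaxanthin epoxidase runs the reaction back, and zeaxanthin favours the release of excess energy as heat. One-helix protein 2 is a member of the light-harvesting-like family with a single membrane span, and in Arabidopsis it is needed for the build-up of photosystem II.

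Recovered library sizes ran from 2875062 to 4875382 reads at Valcea, from 4578385 to 4985937 at Babeni 1 and from 6932366 to 7824727 at Babeni 2, so that the sites also differed in depth. Levels are given as the authors' depth-scaled read values, which they named CPM, and 3 reads corresponded to between 0.351 and 1.19 CPM depending on the library. Log2 differences are of log2(CPM + 0.5) and are given ± SE, which understates the change of low transcripts. Of the 6 transcripts, 6 passed the filter on low values.

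Early light-induced protein RNA was lower at Babeni 1 than at Valcea and lower again at Babeni 2, in each of the 3 transcripts of the locus. At Valcea it was among the most abundant of the transcripts with a given length. The most abundant transcript, number 3 (598 bases), stood at 3204, 2741 and 2304 CPM in the Valcea libraries, at 689, 754 and 765 CPM at Babeni 1 and at 122, 125 and 156 CPM at Babeni 2. The 3 sites did not overlap, and the lowest Valcea library was above the highest Babeni 1 library. The mean was 2749 ± 450.1 (SD, n = 3), 736 ± 41.0 and 134 ± 18.7 CPM in that order, a level 3.74 times lower at Babeni 1 than at Valcea and 20.4 times lower at Babeni 2. The log2 difference of transcript 3 was -1.89 ± 0.14 between Babeni 1 and Valcea, -4.34 ± 0.14 between Babeni 2 and Valcea and -2.46 ± 0.14 between the Babeni sites. These differences are the ones by which the transcripts were chosen, and they are given as a description without a test.

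Transcript 2 (570 bases) had 1433, 1389 and 1259 CPM at Valcea, 290.3, 349.97 and 362 CPM at Babeni 1, and 44.2, 37.8 and 50.5 CPM at Babeni 2. Again no library of one site reached into the range of another. Its log2 differences were -2.03 ± 0.13 for Babeni 1 against Valcea, -4.94 ± 0.13 for Babeni 2 against Valcea and -2.91 ± 0.13 for Babeni 2 against site 1. Transcript 1 (598 bases), the least abundant, had 243, 205 and 173 CPM at Valcea, 22.8, 32.4 and 30.7 CPM at Babeni 1, and 4.56, 4.26 and 3.46 CPM at Babeni 2, which there rested on 39, 34 and 24 reads. It showed the lowest ratio of the 3 to Valcea: its mean level was 7.23 times lower at Babeni 1 and 50.6 times lower at Babeni 2, against 4.07 and 30.8 times for transcript 2. Its log2 differences were -2.84 ± 0.17, -5.49 ± 0.17 and -2.66 ± 0.17 in the same order. In whole shoots, fewer cells of a type and less of this RNA per cell cannot be told apart.

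**Figure D1:**
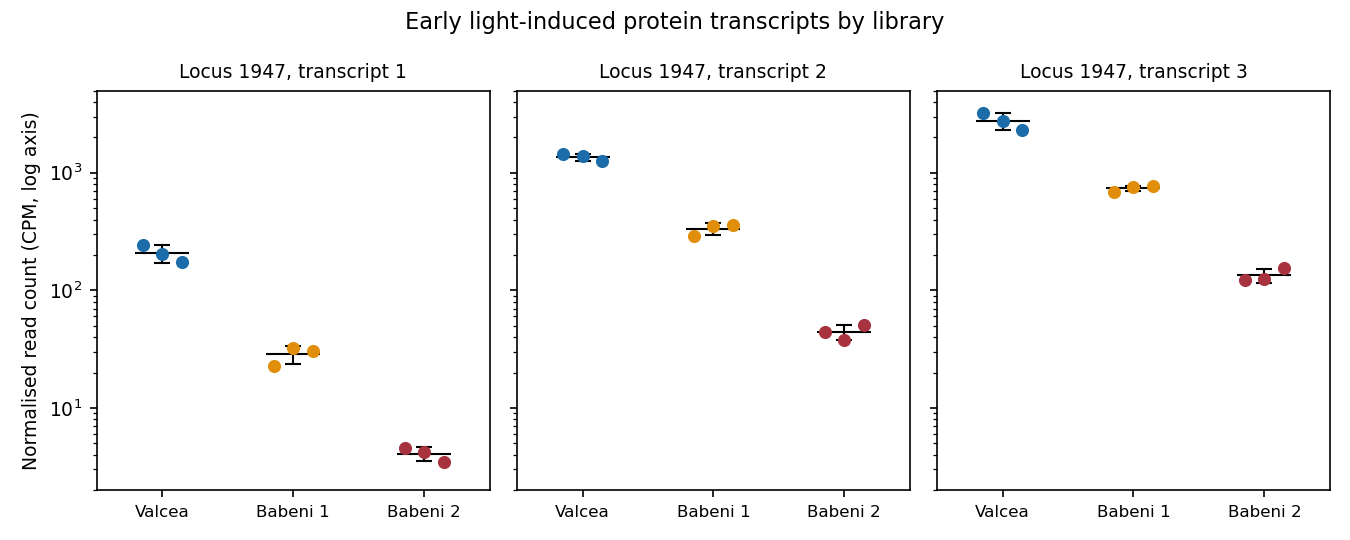
CPM of the 3 early light-induced protein transcripts in each of the 9 libraries, on a log axis, with points for libraries, horizontal lines for the mean of each site and bars for its SD. Each transcript forms 3 separate steps, and transcript 3 runs from 3204 CPM in a Valcea library to 122 CPM in a Babeni 2 library.

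Summed over its 3 transcripts, the locus held 4880, 4335 and 3736 CPM in the Valcea libraries, 1002, 1136 and 1158 CPM at Babeni 1, and 171, 167 and 209.9 CPM at Babeni 2. The sum was 3.93 times lower at Babeni 1 than at Valcea, 23.6 times lower at Babeni 2 than at Valcea and 6.01 times lower at Babeni 2 than at Babeni 1. As a share of all reads the locus went from 0.410 ± 0.0162% (SD, n = 3) at Valcea to 0.115 ± 0.00925% and 0.0194 ± 0.00137%. The numbering implies 4 transcripts for this locus, of which the deposited expression table held 3.

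Per kilobase of transcript, transcript 3 ranked 4 and transcript 2 ranked 8 among the 11717 transcripts with a given length at Valcea. Lengths were given only for transcripts that the authors had called between the sites, so the remaining transcripts were not ranked. Their mean levels per kilobase there were 4598 and 2386 CPM. At Babeni 2 the same 2 transcripts ranked 199 and 555. Ranked by their own log2 difference between Babeni 2 and Valcea, transcripts 1, 2 and 3 had 4, 11 and 26 of the 56752 tested transcripts below them. For Babeni 1 against Valcea, 51, 317 and 446 transcripts had a lower value.

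The 3 transcripts did not keep their proportions within the locus. Transcript 1 made up 4.78 ± 0.181% of the locus CPM at Valcea, 2.59 ± 0.295% at Babeni 1 and 2.29 ± 0.556% at Babeni 2, each as mean ± SD of 3 libraries. Transcript 2 went from 31.7 ± 2.19% to 30.4 ± 1.23% and 24.2 ± 1.66%, and transcript 3 from 63.5 ± 2.01% to 67.1 ± 1.48% and 73.5 ± 1.84%. Transcript 3 thus took the largest share in every library. Transcripts of 1 locus share sequence and how the authors' counting shared reads among them is not given in the sources used here, so the split among the 3 transcripts is uncertain and the locus sum is the firmer value.

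**Figure D2:**
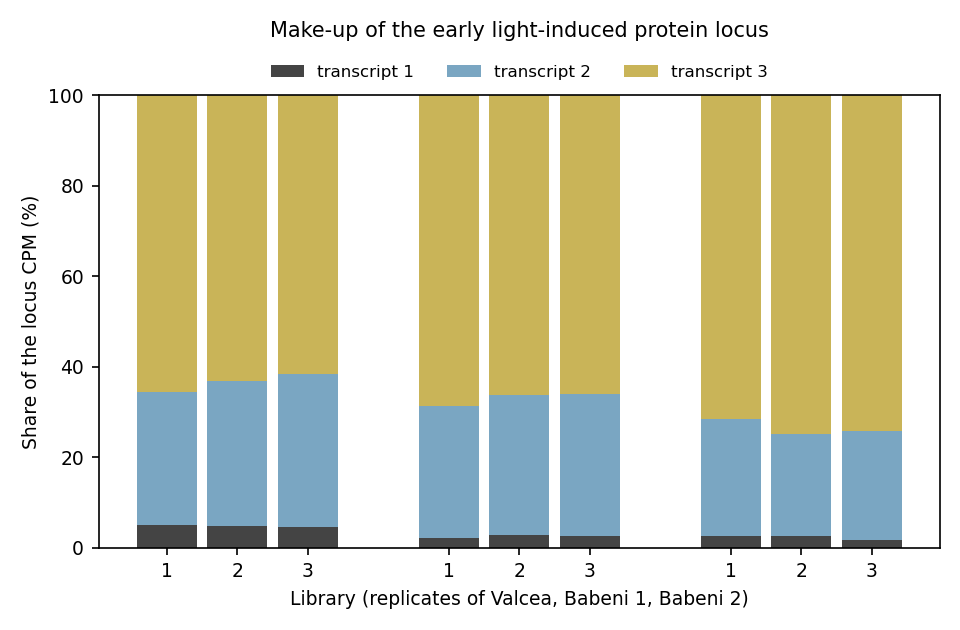
Share of the locus CPM, in percent, held by each early light-induced protein transcript in each library, drawn as stacked bars that start at 0. Transcript 1 shrinks from about 4.78% at Valcea to 2.29% at Babeni 2 while transcript 3 grows from 63.5% to 73.5%.

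One-helix protein 2 was a much lower transcript with the same order of sites. Its transcript (503 bases) had 7.15, 5.21 and 5.08 CPM at Valcea, 3.06, 1.91 and 2.79 CPM at Babeni 1, and 1.29, 1.502 and 1.30 CPM at Babeni 2. The 3 sites did not overlap, although the counts behind them were small, with 9 to 12 reads per library at Babeni 2. The log2 difference was -1.04 ± 0.26 for Babeni 1 against Valcea, -1.75 ± 0.26 for Babeni 2 against Valcea and -0.71 ± 0.26 between the Babeni sites. The mean level at Babeni 2 was 4.26 times lower than at Valcea. Per kilobase, its mean was 11.6 CPM at Valcea and 2.71 CPM at Babeni 2, so at Valcea it stood far below early light-induced protein transcript 3 with 4598 CPM per kilobase.

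The violaxanthin de-epoxidase transcript (1866 bases), whose deposited annotation names the xanthophyll cycle and the enzyme's activity, was low at all sites. It had 5.16, 5.21 and 7.34 CPM at Valcea, 2.49, 3.63 and 4.30 CPM at Babeni 1, and 2.11, 4.13 and 0.722 CPM at Babeni 2. All libraries of both Babeni sites lay below all Valcea libraries, but the Babeni sites overlapped, and the 3 libraries of Babeni 2 differed widely, resting on 18, 33 and 5 reads. Its log2 difference was -0.70 ± 0.37 for Babeni 1 against Valcea, -1.37 ± 0.37 for Babeni 2 against Valcea and -0.67 ± 0.37 between the Babeni sites. The sum over the 6 transcripts of its locus in the table was 18.3 ± 7.36 CPM (SD, n = 3) at Valcea, 12.2 ± 3.55 CPM at Babeni 1 and 10.8 ± 0.642 CPM at Babeni 2, with log2 differences of -0.54 ± 0.26 and -0.67 ± 0.26 for the Babeni sites against Valcea.

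The violaxanthin de-epoxidase-related transcript (1883 bases) had another order of sites. It had 1.99, 1.89 and 3.57 CPM at Valcea, 1.34, 0.954 and 0.430 CPM at Babeni 1, and 2.22, 2.00 and 2.31 CPM at Babeni 2. Babeni 1 was the lowest site, with 7, 5 and 2 reads in its libraries, while Babeni 2 lay within the range of Valcea. The log2 difference was -1.09 ± 0.33 for Babeni 1 against Valcea, -0.11 ± 0.33 for Babeni 2 against Valcea and 0.98 ± 0.33 for Babeni 2 against site 1. The deposited annotation gives it a chloroplast location and names sterol synthesis, not the xanthophyll cycle, so its role as a de-epoxidase rests on its description alone.

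**Figure D3:**
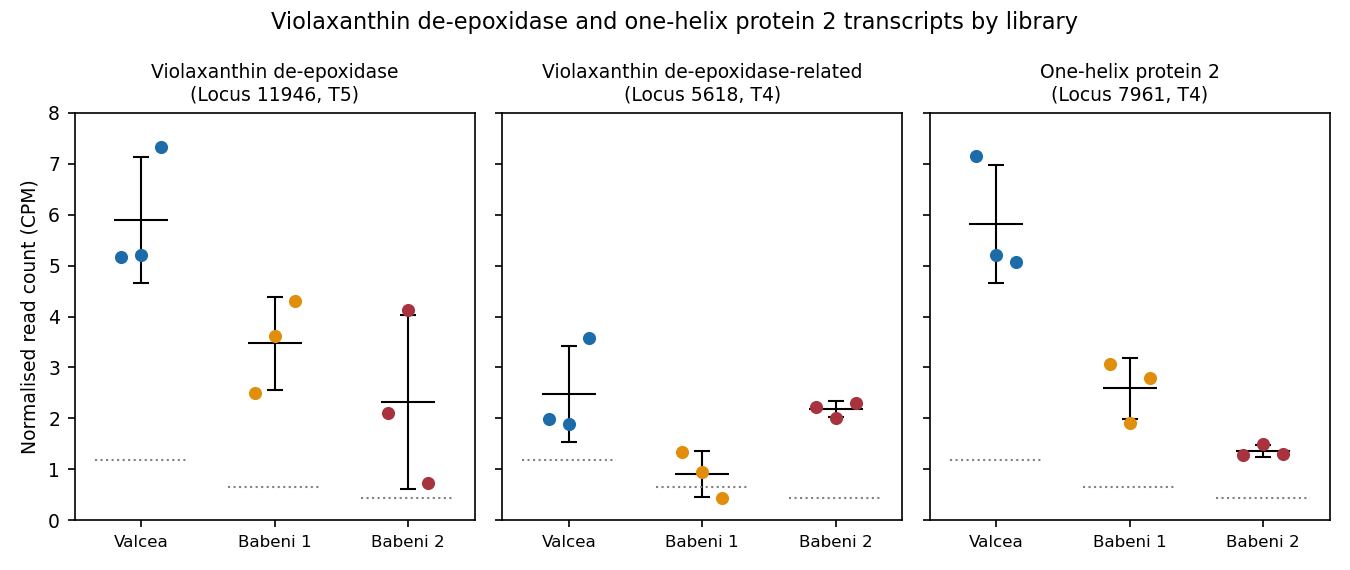
CPM of the violaxanthin de-epoxidase, violaxanthin de-epoxidase-related and one-helix protein 2 transcripts in each of the 9 libraries, with points for libraries, horizontal lines for the mean, bars for the SD and a dotted line at the highest level that 3 reads gave in a library of the site. One-helix protein 2 steps down over the 3 sites from 5.81 to 2.59 and 1.36 CPM on average, whereas the de-epoxidase-related transcript is lowest at Babeni 1 with 0.908 CPM.

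A transcript was called where limma's Benjamini-Hochberg adjusted p over the 56752 tested transcripts was below 0.05 and the fold at least 2. Under that rule 5 of the 6 transcripts were lower at Babeni 1 than at Valcea, against 9.08% of all tested transcripts called in either direction, 4.90% lower and 4.17% higher. The violaxanthin de-epoxidase was the one not called. Between Babeni 2 and Valcea 5 of the 6 were called lower, where 12.1% were called in either direction, 6.09% lower and 6.00% higher, and the de-epoxidase-related transcript was not. Between the Babeni sites the 3 early light-induced protein transcripts were called lower, where 3.18% were called in either direction, 1.63% lower and 1.55% higher. Because the transcripts were chosen on these contrasts, nothing is read from the counts. The calls of the 3 low transcripts were not stable. At Babeni 1 against Valcea the call of one-helix protein 2 was lost without Valcea replicate 1 (log2 difference -0.89) or Babeni 1 replicate 2 (-0.87), by DESeq2 and with a pseudocount of 2. That of the de-epoxidase-related transcript was lost without Valcea replicate 3 (-0.85), Babeni 1 replicate 2 (-1.15) or Babeni 1 replicate 3 (-0.82), by DESeq2, with the replicate block, in a fit of these 2 sites alone and with a pseudocount of 2, so that 3 of the 6 were called without Babeni 1 replicate 2, by DESeq2 or with that pseudocount. At Babeni 2 against Valcea the call of the violaxanthin de-epoxidase was lost without Babeni 2 replicate 3 (-0.86), with no mean trend and with a pseudocount of 2. The calls of the 3 early light-induced protein transcripts were kept in every contrast under each alternative run. All libraries of Babeni 1 lay below all of Valcea for 6 of the 6, where 15.6% of tested transcripts did so, and all of Babeni 2 lay below Valcea for 5, where 17.5% did. Babeni 2 lay wholly below Babeni 1 for 4 transcripts and wholly above it for 1, where 11.8% and 12.1% of tested transcripts did. In the reverse direction, 15.4% and 18.4% of tested transcripts lay wholly above Valcea at the first and at the second Babeni site.

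The authors' deposited tables, which list what they called at a fold of 2 and a false discovery rate of 5%, held the same numbers of the 6 transcripts, 5, 5 and 3. In the authors' deposited table for Babeni 2 against Valcea, the log2 fold change was -5.64 for early light-induced protein transcript 1, -4.95 for transcript 2 and -4.35 for transcript 3. For one-helix protein 2 the authors' deposited tables gave -1.11 at Babeni 1 and -2.02 at Babeni 2 against Valcea. The authors' deposited tables listed the violaxanthin de-epoxidase only for Babeni 2 against Valcea, at -1.34, and the related transcript only for Babeni 1 against Valcea, at -1.48.

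The other transcripts of the 4 loci were not chosen on these values, and 9 of them were in the table. They share sequence with the 6 transcripts, so reads can be split among them and their differences are not independent. With limma, 2 of the 9 fell and 0 rose at Babeni 1 against Valcea, where 4.90% of all tested transcripts were called lower. At Babeni 2 against Valcea 4 fell and 0 rose, where 6.09% were called lower, and between the Babeni sites none was called. That 0 compares with 1 transcript at an unadjusted p under 0.05 and with 0 calls by both edgeR and DESeq2. For the rises, 0 transcripts had an unadjusted p under 0.05 in any contrast, and edgeR and DESeq2 called 0. Of the one-helix protein 2 locus, Locus_7961_Transcript_3_6_ had 10.7, 13.7 and 5.64 CPM at Valcea, 3.64, 3.63 and 3.01 CPM at Babeni 1, and 1.99, 0.876 and 2.89 CPM at Babeni 2. All of its Babeni libraries were below all of its Valcea libraries. It fell at both, with a log2 difference of -1.34 ± 0.34 at Babeni 1 (limma adjusted p = 0.0118) and of -2.13 ± 0.34 at Babeni 2 (adjusted p = 0.00022). Locus_7961_Transcript_5_6_ fell as well, with -1.12 ± 0.36 at Babeni 1 (limma adjusted p = 0.0437) and -1.49 ± 0.36 at Babeni 2 (adjusted p = 0.00696), and the latter call was lost with a pseudocount of 2.

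The calls at Babeni 1 in this locus rested on single libraries. That of Locus_7961_Transcript_3_6_ was lost without Valcea replicate 2 or Babeni 1 replicate 3, and that of Locus_7961_Transcript_5_6_ without Valcea replicate 1 or 2 or Babeni 1 replicate 1 or 2, with a pseudocount of 2 and by edgeR and DESeq2. Locus_7961_Transcript_2_6_ fell at Babeni 2 against Valcea, with a log2 difference of -1.37 ± 0.34 (limma adjusted p = 0.0085), and a pseudocount of 2 ended that call. The descriptions of Locus_7961_Transcript_3_6_ and Locus_7961_Transcript_5_6_ name an extensin-like and a formin-like protein, although their annotation carries the same thylakoid membrane and light-intensity terms as one-helix protein 2, so their identity is uncertain. Summed over 4 transcripts, this locus had 20.1 ± 5.13 CPM (SD, n = 3) at Valcea, 7.82 ± 0.660 CPM at Babeni 1 and 4.24 ± 1.10 CPM at Babeni 2, a log2 difference of -1.28 ± 0.22 and -2.11 ± 0.22 against Valcea.

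Among the other transcripts of the violaxanthin de-epoxidase locus only Locus_11946_Transcript_6_7_ was called. Its log2 difference was -1.138 ± 0.34 at Babeni 2 against Valcea (limma adjusted p = 0.0264). That call was lost without Valcea replicate 2 or 3 and without any one of the Babeni 2 libraries, with no mean trend and with a pseudocount of 2. Locus_11946_Transcript_1_7_, Locus_11946_Transcript_2_7_, Locus_11946_Transcript_3_7_, Locus_11946_Transcript_4_7_ and Locus_5618_Transcript_5_6_ were not called in any contrast, and their log2 differences lay between -0.46 and 0.58. The sum of the de-epoxidase-related locus, over 2 transcripts, had log2 differences of -0.85 ± 0.35 at Babeni 1 and 0.01 ± 0.35 at Babeni 2 against Valcea.

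**Figure D4:**
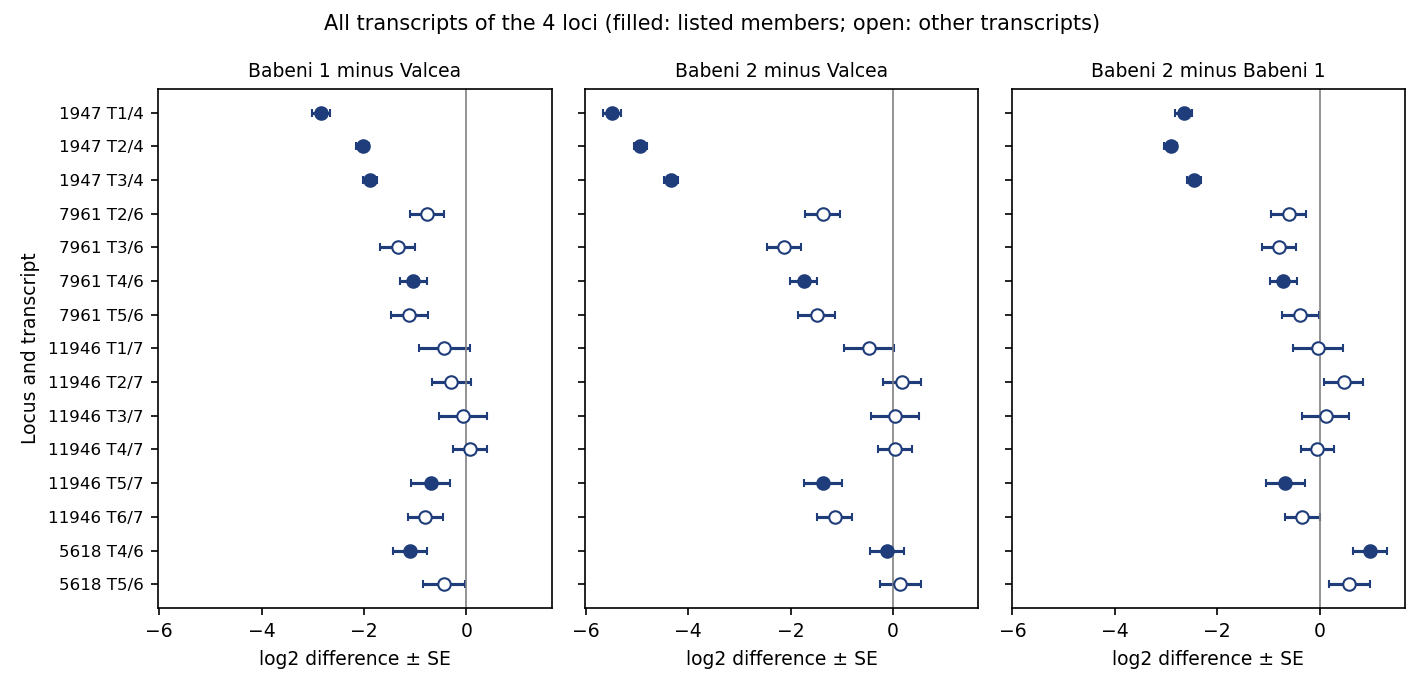
Log2 difference ± SE for the 15 transcripts of the 4 loci in the 3 site contrasts, with filled points for the 6 listed transcripts and open points for the other 9. The early light-induced protein transcripts lie farthest to the left, down to -5.49, and the de-epoxidase-related transcript lies to the right of 0 between the Babeni sites at 0.98.

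The other described transcripts of photoprotection and of light responses were grouped by the words of their descriptions. Descriptions were given only for transcripts that the authors had called between these sites. The counts below are therefore of transcripts already chosen as changed, and they are no independent evidence about a pathway. Each count is to be read beside the 4661 tested transcripts with a description. Of these, 24.8% were called lower and 20.7% higher at Babeni 1 against Valcea, and 32.0% and 27.1% at Babeni 2 against Valcea. Between the Babeni sites 8.67% were called lower and 5.41% higher. The xanthophyll cycle held 1 further transcript, zeaxanthin epoxidase (Locus_1009_Transcript_2_2_), the enzyme that reverses de-epoxidation. It had 32.6, 28.2 and 36.9 CPM at Valcea, 15.3, 16.2 and 17.2 CPM at Babeni 1, and 6.32, 9.76 and 5.92 CPM at Babeni 2. The 3 sites did not overlap. It fell with a log2 difference of -2.10 ± 0.19 at Babeni 2 against Valcea (limma adjusted p = 5.0e-07) and of -1.13 ± 0.19 between the Babeni sites (adjusted p = 0.00129), the latter call being lost without Babeni 2 replicate 3 or with a pseudocount of 2. At Babeni 1 against Valcea its log2 difference of -0.97 ± 0.19 fell short of the 2-fold threshold, and it passed with edgeR and without Valcea replicate 2 or Babeni 1 replicate 3.

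Energy dissipation was represented by 7 transcripts of the locus Locus_27, described as the photosystem II 22 kDa protein, and by 1 lipocalin. The 22 kDa protein, PsbS, senses the acid lumen and switches on heat dissipation in the antenna. Of the 8 transcripts, 6 fell at Babeni 1 against Valcea and none rose, 7 fell and 1 rose at Babeni 2 against Valcea, and 4 fell while none rose between the Babeni sites. Where none rose by limma, 1 transcript had an unadjusted p under 0.05 with a higher level, and edgeR and DESeq2 called 0. The median log2 difference of the 8 was -1.27, -2.39 and -0.99 in the same order, where the median of all tested transcripts was 0.03, 0.05 and 0.02. Locus_27_Transcript_12_16_ went from 2853 ± 467.8 CPM (SD, n = 3) at Valcea to 973 ± 53.5 and 432 ± 74.7 CPM. Its fall had a log2 difference of -1.54 ± 0.15 at Babeni 1 (limma adjusted p = 2.5e-06) and of -2.72 ± 0.15 at Babeni 2 (adjusted p = 1.3e-09).

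Locus_27_Transcript_8_16_ had a log2 difference of -3.36 ± 0.19 at Babeni 2 against Valcea (limma adjusted p = 3.1e-09). The 1 transcript that rose at Babeni 2 was the chloroplastic lipocalin (Locus_10511_Transcript_1_2_), a thylakoid lumen protein that in Arabidopsis takes part in sustained heat dissipation. It had 9.25 ± 0.865, 15.4 ± 0.892 and 21.5 ± 2.90 CPM (SD, n = 3) at Valcea, Babeni 1 and Babeni 2, a rise of 1.17 ± 0.16 at Babeni 2 (limma adjusted p = 6.1e-05), and it is named here because it was the exception, after its values were seen.

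Photosystem II repair and assembly held 16 transcripts of 7 loci, mostly FtsH proteases, whose chloroplast forms remove damaged D1 protein, and the stability and assembly factor. One of the FtsH transcripts, Locus_18593_Transcript_10_11_, is described as mitochondrial-like and entered through the name FtsH. Without it, a step chosen after seeing the data, 13 of 15 fell at each Babeni site against Valcea, with medians of -1.33 and -1.45. Of the 16, 13 fell at Babeni 1 against Valcea and 14 at Babeni 2 against Valcea, and none rose in either. Between the Babeni sites none was called by limma, with 4 at an unadjusted p under 0.05, all lower, and 0 by edgeR and by DESeq2. For the rises, 0 had an unadjusted p under 0.05 in any of the 3 contrasts and edgeR and DESeq2 called 0. The median log2 difference was -1.29 and -1.41 against Valcea and -0.11 between the Babeni sites.

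The stability and assembly factor Locus_1310_Transcript_7_9_ had 272 ± 3.54 CPM (SD, n = 3) at Valcea, 66.8 ± 6.43 CPM at Babeni 1 and 65.5 ± 5.60 CPM at Babeni 2. The log2 differences from Valcea were -2.02 ± 0.12 (limma adjusted p = 2.7e-08) and -2.05 ± 0.12 (adjusted p = 4.2e-09). The FtsH transcript Locus_3136_Transcript_2_8_ went from 12.3 ± 1.68 to 1.73 ± 0.508 and 0.741 ± 0.457 CPM with log2 differences of -2.54 ± 0.31 (limma adjusted p = 3.4e-05) and -3.43 ± 0.31 (adjusted p = 6.3e-07). Between the Babeni sites the early light-induced protein locus sum had a log2 difference of -2.59 ± 0.13, and the 16 repair transcripts a median of -0.11. The former locus was chosen on these contrasts, so the values are only set side by side.

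Carotenoid synthesis and cleavage held 13 transcripts of 9 loci, of which 3 fell and 1 rose at Babeni 1 against Valcea, 5 fell and 0 rose at Babeni 2 against Valcea, and 3 fell and 0 rose between the Babeni sites. For the rise at Babeni 2 against Valcea, limma had 1 transcript at an unadjusted p under 0.05, and edgeR and DESeq2 called 0, and between the Babeni sites all 3 counts of rises were 0. Locus_3411_Transcript_2_3_, described as prolycopene and chloroplastic, had 116 ± 7.71 CPM (SD, n = 3) at Valcea, 49.7 ± 0.916 CPM at Babeni 1 and 38.3 ± 4.44 CPM at Babeni 2. Its log2 differences from Valcea were -1.21 ± 0.13 (limma adjusted p = 7.4e-06) and -1.59 ± 0.13 (adjusted p = 1.4e-07). Phytoene synthase, the entry enzyme of the pathway, fell between the Babeni sites in Locus_4784_Transcript_2_3_, with a log2 difference of -1.196 ± 0.17 (limma adjusted p = 0.00035), from 34.1 ± 5.56 to 14.7 ± 2.94 CPM. The single rise at Babeni 1, of a carotenoid cleavage dioxygenase, was lost without Valcea replicate 1. The counts at Babeni 1 were not above the shares of all described transcripts, 24.8% lower and 20.7% higher.

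Chlorophyll synthesis and breakdown held 25 transcripts of 12 loci. Of these 5 fell and 4 rose at Babeni 1 against Valcea, and 9 fell and 1 rose at Babeni 2 against Valcea. Between the Babeni sites 12 fell, where limma, edgeR, DESeq2 and an unadjusted p under 0.05 gave 0 rises. The counts at Babeni 1 were not above the shares of all described transcripts, 24.8% lower and 20.7% higher, so nothing is read from them. Locus_8702_Transcript_3_6_ is described as chlorophyllide a oxygenase, the enzyme that makes chlorophyll b. It had 11.1, 21.8 and 21.3 CPM at Valcea and 1.15, 1.34 and 1.07 CPM at Babeni 1. At Babeni 2 it had 0.234, 0.751 and 0.578 CPM. It fell at both Babeni sites, with log2 differences from Valcea of -3.402 ± 0.31 (limma adjusted p = 1.6e-06) and -4.16 ± 0.31 (adjusted p = 6.1e-08). Locus_8702_Transcript_5_6_ is described as a protochlorophyllide-dependent translocon component, and is given because it shares the locus. Its means were 11.1, 4.43 and 5.09 CPM at Valcea, Babeni 1 and Babeni 2, with -1.33 ± 0.27 at Babeni 1 against Valcea. The identity of this locus is therefore uncertain. Locus_387_Transcript_3_4_, described as protochlorophyllide and chloroplastic, rose from 1.46 ± 0.910 CPM (SD, n = 3) to 11.99 ± 0.418 and 14.9 ± 1.15 CPM, by 2.79 ± 0.28 (limma adjusted p = 4.1e-06) and 3.09 ± 0.28 (adjusted p = 4.9e-07). The count of rises at Babeni 1 was 2 without Valcea replicate 2 or without Babeni 1 replicate 2, and 2 with DESeq2.

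Light signalling, with photoreceptors and the COP1 and SPA proteins that repress light responses in the dark, held 28 tested transcripts of 15 loci. At Babeni 1 against Valcea 3 fell and 5 rose, and at Babeni 2 against Valcea 19 fell and 4 rose. Between the Babeni sites 12 fell and none rose, with 0 rises at an unadjusted p under 0.05 and 0 by edgeR and DESeq2. The counts at Babeni 1 were not above the shares of all described transcripts, 24.8% lower and 20.7% higher. The COP1-like ligase Locus_10139_Transcript_1_2_ had 10.3 ± 2.89 CPM (SD, n = 3) at Valcea, 9.08 ± 2.35 CPM at Babeni 1 and 0.751 ± 0.290 CPM at Babeni 2. It fell at Babeni 2, with a log2 difference of -3.10 ± 0.27 from Valcea (limma adjusted p = 4.5e-07) and of -2.94 ± 0.27 from Babeni 1 (adjusted p = 3.6e-06). The phytochrome kinase substrate 1-like transcript Locus_3087_Transcript_2_3_ had 8.34, 5.44 and 5.27 CPM at Valcea, 0.574, 0.382 and 0.430 CPM at Babeni 1, and 0.351, 0.125 and 1.16 CPM at Babeni 2. It fell with a log2 difference of -2.81 ± 0.37 in both contrasts with Valcea (limma adjusted p = 6.9e-05 and 3.8e-05).

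At Babeni 1 the light signalling transcripts that rose were of phytochrome B, phytochrome C and COP1-interacting protein 7, opposite in direction to the examples above. Part of the rises among the light signalling transcripts rested on single libraries. At Babeni 1 leaving out Valcea replicate 2 or Babeni 1 replicate 1 left 3, and there were 2 without Babeni 1 replicate 3. There DESeq2 called 0 and edgeR called 6. At Babeni 2 the rises numbered 1 without Babeni 2 replicate 1 or 2, and 2 without Babeni 2 replicate 3 or Valcea replicate 1. There DESeq2 called 1 and edgeR called 4. The light-related lists without the 6 transcripts, 91 tested transcripts in all, had 30 falls and 10 rises at Babeni 1 against Valcea, 55 and 6 at Babeni 2 against Valcea, and 32 and 0 between the Babeni sites, where 1 rise had an unadjusted p under 0.05 and edgeR and DESeq2 called 0. The 4661 tested transcripts with a description had likewise all been called by the authors in some contrast. Of them, 24.8% were called lower and 20.7% higher in the first contrast, and 32.0% and 27.1% in the second. In the third, 8.67% and 5.41% were.

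**Figure D5:**
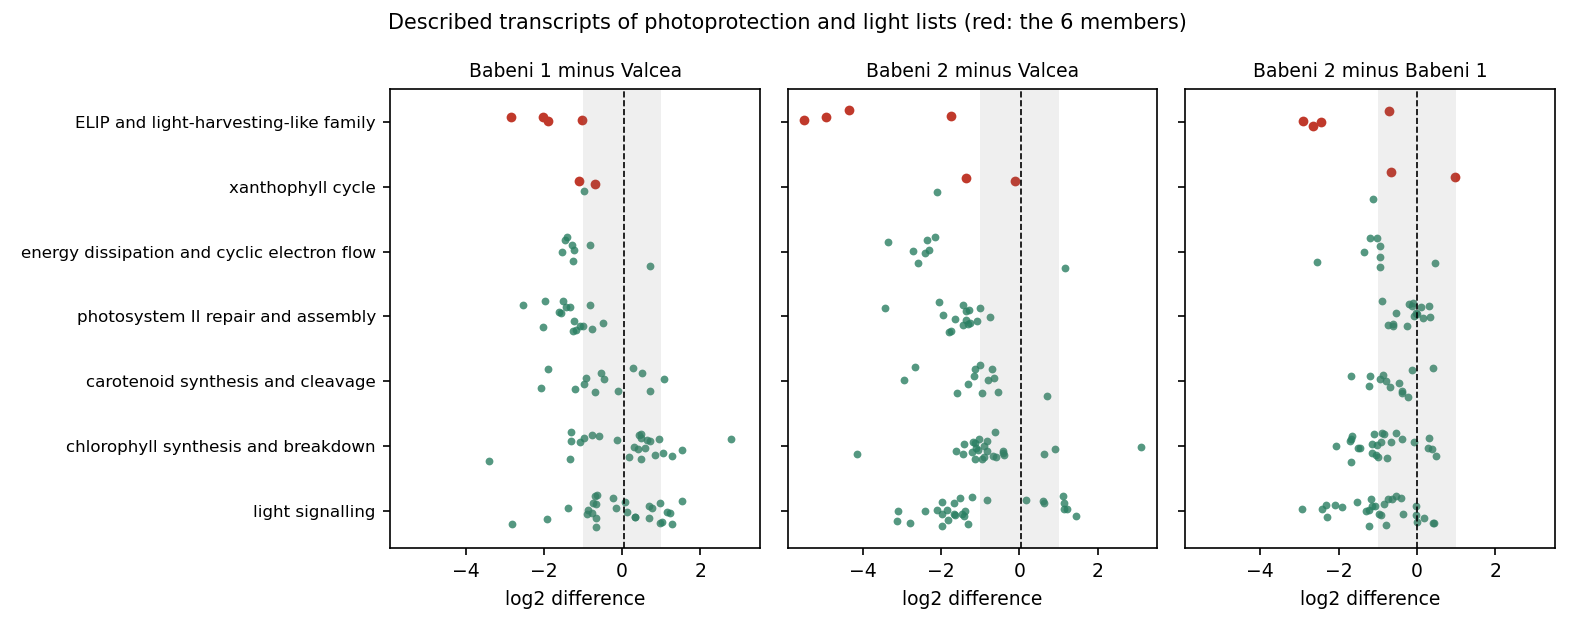
Log2 difference of each described transcript of the photoprotection and light lists in the 3 site contrasts, with red points for the 6 listed transcripts, the dashed line at the median of all tested transcripts and the grey band within 2-fold. Most photosystem II repair transcripts lie left of the band against Valcea and they lie around 0 between the Babeni sites, where its median is -0.11, while the 3 early light-induced protein transcripts lie at -2.46 or lower there.

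Likeness of pattern was measured as the root mean square difference of log2 values over the 9 libraries, after centring, from early light-induced protein transcript 2. Transcript 3 of the same locus stood at 0.273 and transcript 1 at 0.388, whereas one-helix protein 2 stood at 1.36, the violaxanthin de-epoxidase at 1.58 and the related transcript at 2.13. Of 2436 described transcripts of other loci, the nearest was an ATL6-like ubiquitin ligase, Locus_4126_Transcript_6_7_, at 0.313. It had 59.8 ± 11.6 CPM (SD, n = 3) at Valcea, 20.4 ± 0.551 CPM at Babeni 1 and 1.57 ± 0.560 CPM at Babeni 2. Next came a bHLH30-like transcription factor (Locus_7214_Transcript_3_3_) at 0.349, and 5 of the 8 nearest were heat shock protein 70 transcripts of Locus_1034, a chaperone family, between 0.420 and 0.564. These were Locus_1034_Transcript_27_36_, Locus_1034_Transcript_30_36_, Locus_1034_Transcript_25_36_, Locus_1034_Transcript_29_36_ and Locus_1034_Transcript_31_36_, and the last of the 8 was Locus_4126_Transcript_5_7_, also ATL6-like, at 0.549.

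The heat shock protein 70 transcript Locus_1034_Transcript_27_36_ had 92.1 ± 6.83 CPM (SD, n = 3) at Valcea, 40.8 ± 3.30 CPM at Babeni 1 and 4.86 ± 0.241 CPM at Babeni 2. The likeness is a description over 9 libraries, which share the same 3 sites. With a pseudocount of 2 in place of 0.5 the bHLH30-like transcript moved to 0.769 from transcript 2, and Locus_4126_Transcript_5_7_ to 0.779. They then ranked 12 and 14 among the described transcripts, outside the 8 nearest.

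For shoot tissue, 50 transcripts were described as antenna proteins, photosystem reaction center proteins or plastocyanin. Like all described transcripts, they had been called by the authors between the sites. Their levels and calls are therefore not a check of tissue identity. Between 49 and 50 of them had reads in every library, and their summed level was 2544 to 3517 CPM at Valcea, 4063 to 4878 CPM at Babeni 1 and 1998 to 2356 CPM at Babeni 2. Of these 50, 3 fell and 14 rose at Babeni 1 against Valcea, 11 fell and 2 rose at Babeni 2 against Valcea, and 35 fell between the Babeni sites. The falls at Babeni 1 numbered 1 without Valcea replicate 2 and with quantile normalization. Of all described transcripts, 24.8% were called lower and 20.7% higher in the first of these contrasts, and 32.0% and 27.1% in the second. In the third, 8.67% were called lower. The summed level of these shoot transcripts was thus highest at Babeni 1, where the early light-induced protein was intermediate.

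The words searched for root and for flower tissue matched 1 described transcript each, and neither was at 0. Both were matched by name alone and, like the epiphyte marker below, had been called by the authors. Their levels therefore do not measure root or flower tissue. The root hair defective 3-like transcript had 1.19 to 1.66 CPM at Valcea, 2.79 to 3.64 CPM at Babeni 1 and 3.98 to 4.48 CPM at Babeni 2. The MADS-box transcription factor 26-like transcript had 28.2 to 31.0 CPM at Valcea, 4.98 to 8.78 CPM at Babeni 1 and 5.20 to 9.26 CPM at Babeni 2. Diatoms or other algae growing on the shoot had 1 marker, a fucoxanthin chlorophyll a/c binding protein (Locus_12779_Transcript_1_1_), with 19.6 to 21.8 CPM at Valcea, 8.59 to 11.2 CPM at Babeni 1 and 6.90 to 8.66 CPM at Babeni 2. It fell, with log2 differences of -1.09 ± 0.17 (limma adjusted p = 0.000363) and -1.34 ± 0.17 (adjusted p = 2.7e-05) against Valcea, along with the early light-induced protein transcripts, and a pseudocount of 2 ended the former call. The part of these tissues, of growth on the shoot and of the difference in depth in the falls described above was not tested.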

How the data were processed

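RNA was sequenced from 9 Elodea shoot libraries, 3 per site, prepared with a stranded kit per the labels' protocols. The deposited expression values are scaled read signal that the authors named edgeR CPM, per the file headers. Their totals differ between libraries, but every value was a whole multiple of the library's step within 0.01 (100% of values), so reads were recovered. The planned unit was CPM, and the deposited signal was kept with the same test. Log2 fold changes, p-values and false discovery rates of the deposited comparison tables are the authors' own, per the file headers. Tools named, per the submitters' processing notes and without a role, are edgeR 3.4.2, HTSeq 0.5.3p9, BWA 0.7.10 and TopHat2 2.0.11. The assembly, annotation and build are not given in the sources used here.

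Transcripts with at least 1 CPM in at least 3 libraries were kept (56752 of 58110) and log2(CPM + 0.5) was fitted under R 4.3.3 in 1 limma model (3.58.1, trend in the mean) over the 9 libraries. The recovered reads were also given to DESeq2 1.42.0 and edgeR 4.0.16, and other scalings, pseudocounts and filters, a replicate block and each library left out were tried. The scripts were tested on simulated data. The members and the lists were chosen with earlier results of these data known. Text names all 6 transcripts, the others of their 4 loci, examples among up to 3 called non-overlapping transcripts per list and contrast with the largest difference, and the 8 described transcripts nearest in pattern. A tocopherol list matched no description. The Chlamydomonas libraries were not analysed here. Levels given for 3 reads cover counting error only.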

Additional observations from a re-analysis of the deposited data

How the results depend on the processing

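None of the log2 differences of the 6 transcripts that had been called changed sign under any alternative run. Over all alternatives, 319 of 321 values kept the sign. The exceptions were of the de-epoxidase-related transcript at Babeni 2 against Valcea, at 0.13 without Valcea replicate 3 and 0.01 for the locus sum, against -0.11. A pseudocount of 2 moved one-helix protein 2 to -0.77, -1.21 and -0.44 (Babeni 1 and site 2 against Valcea, then between the Babeni sites), the de-epoxidase-related transcript to -0.62 and 0.53 (Babeni 1 against Valcea, between the Babeni sites) and early light-induced protein transcript 1 to -5.09 and -2.32 (Babeni 2 against Valcea and against site 1). One-helix protein 2 at Babeni 2 against Valcea was -2.001 with a pseudocount of 0.1, -2.04 with edgeR and -2.06 with DESeq2. Quantile normalization gave -1.80 and -4.76 for early light-induced protein transcript 2 and -1.67 and -4.15 for transcript 3 against Valcea. The locus sum gave -1.97 at Babeni 1 where transcript 1 had -2.84, -4.56 at Babeni 2 for all 3 transcripts and -2.59 between the Babeni sites, where transcript 2 had -2.91. It gave -1.28 and -2.11 for one-helix protein 2 against Valcea and -0.67 for the violaxanthin de-epoxidase at Babeni 2. Of the 6 transcripts, a pseudocount of 2 called 3 and 4 lower against Valcea and DESeq2 3 and 5, against 5 and 5. At a minimum of 5 CPM the de-epoxidase-related transcript was not fitted.

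Counts over all transcripts (lower and higher, Babeni 1 against Valcea, Babeni 2 against Valcea, between the Babeni sites) were 2782 and 2369, 3454 and 3407, 926 and 879. They became 1390 and 679, 1858 and 1455, 497 and 557 with a pseudocount of 2, and 1478 and 958, 1906 and 1402, 593 and 511 at a minimum of 5 CPM. DESeq2 called 1306 and 2250 higher against Valcea, and a fit with no trend called 567 higher between the Babeni sites. Rises in the lists fell to 3 at Babeni 1 with a pseudocount of 2, a minimum of 5 CPM or DESeq2, and to 3 at Babeni 2 with those or quantile normalization. Falls between the Babeni sites were 18 with a pseudocount of 2 and 21 at a minimum of 5 CPM. Among the other transcripts of the loci, 1 fell at Babeni 1 with a pseudocount of 0.1 or 2, a minimum of 5 CPM, a fit of 2 sites, edgeR or DESeq2, and 1 at Babeni 2 with a pseudocount of 2 or a minimum of 5 CPM. By list, a pseudocount of 2 gave 3, 5 and 5 falls in chlorophyll synthesis (against 5, 9 and 12) and 2 rises at Babeni 1, 0 and 1 light signalling rises at Babeni 1 and 2 (against 5 and 4), and 1 carotenoid and 0 xanthophyll falls between the Babeni sites. A minimum of 5 CPM gave 10 and 6 light signalling falls (against 19 and 12, at Babeni 2 against Valcea and between the Babeni sites), 1 rise in each contrast with Valcea, 3 carotenoid falls at Babeni 2, and 3 falls and 1 rise in chlorophyll synthesis at Babeni 1. Shoot marker rises at Babeni 1 were 7 with a pseudocount of 2 and 8 at that minimum, against 14. Shoot marker rises at Babeni 2 were 1 with either, against 2, and falls at Babeni 1 were 1 with quantile normalization, against 3. Quantile normalization gave 8 carotenoid falls and 1 light signalling rise at Babeni 2. The cause of these shifts was not tested.

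With each library left out, the rises in the lists ranged from 6 to 9 at Babeni 1 and from 3 to 7 at Babeni 2, falls of the other transcripts at Babeni 1 from 0 to 2, and transcripts higher at Babeni 2 than at site 1 from 531 to 929. Libraries with the same replicate number did not deviate together (correlations from -0.156 to 0.0577 over 9 pairs). These numbers are from the sample titles and differ in part from the numbers in the authors' own sample names. Whether any libraries are paired is therefore not known. A fit with the replicate block left 1 of the 2 falls of the other transcripts and 4 of the 5 calls of the 6 transcripts at Babeni 1. Planned comparisons with relatives of these genes in Chlamydomonas were not run, since no names were matched. The depth limits the low transcripts: 3 reads are up to 1.19 CPM.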

Other observations

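Among 21425 transcripts of other loci compared over the 9 libraries, 7 of the 8 nearest in pattern to early light-induced protein transcript 2 had no description. The nearest, Locus_73928_Transcript_2_2_, stood at 0.164 and had 443 ± 58.3 CPM (SD, n = 3) at Valcea, 104 ± 7.71 CPM at Babeni 1 and 11.3 ± 2.32 CPM at Babeni 2. Locus_39168_Transcript_1_2_ stood at 0.189, with 3270.3, 2969 and 2443 CPM at Valcea, 545, 526 and 576 CPM at Babeni 1, and 88.4, 80.1 and 89.2 CPM at Babeni 2. Its 3 sites did not overlap. Both were picked because they lie near in pattern, so their differences between sites are given without a test.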
